A study of Mus musculus with 45 samples.

Results

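The nuclear genome encodes most subunits of the enzymes of oxidative phosphorylation, and the transcripts of these genes were followed across a mouse liver series of diet and recovery. The members were chosen by name alone. They were the genes whose symbols begin with Ndufa, Ndufb, Ndufc, Ndufs or Ndufv (complex I), Uqcr (complex III), Cox4i, Cox5, Cox6, Cox7 or Cox8 (complex IV) or Atp5 (ATP synthase), plus Sdha, Sdhb, Sdhc and Sdhd (complex II), without the Ndufaf assembly factors and names containing -ps. This gave 86 of the 24946 genes used, and 82 of them had a mean of at least 0.5 TPM (a share of each library corrected for transcript length and scaled to the same sum in all) and entered the tests. Of the 86 members, 39 belong to complex I, 4 to complex II, 8 to complex III, 18 to complex IV and 17 to ATP synthase.

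Oxidative phosphorylation takes place in the inner mitochondrial membrane. Complexes I and II pass electrons from NADH and succinate to coenzyme Q, complex III hands them to cytochrome c, complex IV reduces oxygen, and ATP synthase uses the proton gradient that complexes I, III and IV build. Hepatocytes are rich in mitochondria, and they oxidise ethanol through enzymes that produce NADH, which complex I re-oxidises. A small set of the subunits is encoded by mitochondrial DNA, and none of the 13 symbols listed for these was among the gene names used, so subunits of nuclear and mitochondrial origin could not be compared.

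Bulk liver lysate from WT mice was sequenced in 45 libraries, which fall into 12 groups of 3 or 4 by stage, diet label and sex label. At peak, mice had been fed the Lieber-DeCarli ethanol diet (a liquid diet containing ethanol) or its control diet for 6 weeks. Early resolution followed 3 days, and late resolution 2 weeks, of control diet after the 6 weeks of ethanol diet. The ethanol-labelled and control-labelled libraries numbered 8 and 8 at peak, 7 and 8 at early resolution, and 6 and 8 at late resolution. No label ties libraries to litters or days, so p-values measure only the spread between these samples.

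The sex transcripts went with the diet label and not with the sex label. Xist, which is transcribed from the inactive X chromosome, was between 13.7 and 51.8 TPM in all 21 ethanol-labelled libraries, where the Y-linked Eif2s3y was at most 0.039 TPM. It was at most 0.349 TPM in 23 of the 24 control-labelled libraries, whose Eif2s3y was between 7.83 and 12.7 TPM. The exception was control female library 1 at late resolution, with 39.5 TPM of Xist and an Eif2s3y listed at 0. Thus 22 of 45 libraries went against their sex label, and in every stage all 10 listed female-biased liver genes passed the test as higher, and all 10 male-biased ones as lower, by diet label. Differences by diet label and by the sex of the animals cannot be told apart here, and the words ethanol, control, male and female below name labels only.

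A pair of other libraries stood apart by transcripts of other tissues. The summed level of 12 muscle genes was 6408 TPM in ethanol female library 1 at peak, and at most 4.75 TPM in any other library. Among 7 adipose genes, the sum was 95.1 TPM in ethanol male library 1 at late resolution, against at most 20.3 TPM in the other ethanol libraries and up to 81.3 TPM in control libraries. Member counts are also given without these 2 libraries and control female library 1 at late resolution wherever that moves them by over 1.5 times, as are the named calls lost without them. The hepatocyte markers summed to between 113700 and 242800 TPM, so the labelled tissue matched its defining genes in every library. The hepatocyte sum also moved with the diet label. At peak it was 188500 to 226000 TPM in ethanol libraries, against 156700 to 181000 TPM in control libraries, without overlap. At early resolution it was 178900 to 229400 TPM, against 113700 to 187700 TPM. At late resolution it was 215400 to 242800 TPM, against 142900 to 221900 TPM. Of the 10 hepatocyte genes, 2, 3 and 2 were called higher at peak, early and late resolution, and none lower. Of all genes, 17.3%, 14.3% and 8.82% were higher. With the median-of-ratios scaling described below, 1 hepatocyte gene was higher at each stage, and 1 was lower at peak and 1 at late resolution. On that scale 35.7%, 16.8% and 21.0% of all genes were called in either direction. The part of the hepatocyte sum in the members' differences was not tested. Sequencing depth is unknown because TPM hides it, and between 15093 and 16402 genes were above 0 per library.

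Promoters are shown for 5 of the members called by diet label in the comparisons below. NRF1 is a transcription factor known for binding respiratory-gene promoters, and members that hold a match to its site are set beside others without one. The 5 do not represent the called members: Ndufs7 and Ndufa7, also called below, held no match to the NRF1 site and are not shown. RefSeq (GRCm38.p6) gave a window from 250 bases before to 50 bases after the start for 69 of the 86 members. The letters GCGCATGC on either strand, the core of that site, occurred in 10 of the 69 (14.5%), among them Sdhb, Ndufa8, Uqcrc1, Cox6a1, Atp5k, Atp5g2 and Ndufa11, and in 824 of all 27025 genes with a window (3.05%). CCGGAAG on either strand, the core of ETS-family sites such as that of GABP, occurred in 23.2% of members and 9.93% of all genes, and AAGATGGC on either strand, the core of the YY1 site, in 14.5% and 3.19%. The end of CCGGAAG can overlap the start of AAGATGGC, but in 0 of the 69 members did matches of different motifs overlap; the NRF1 core can match both strands of a single site. Each sequence below runs 5′ to 3′ on the gene's strand over 200 bases of the window, with the NRF1 letters in capitals. Atp5k is at chr5:108434400-108434599 (minus strand), Atp5g2 at chr15:102671048-102671247 (minus), Ndufa11 at chr17:56717562-56717761 (plus), Atp5b at chr10:128083107-128083306 (plus) and Cox7a1 at chr7:30183971-30184170 (plus).
Atp5k: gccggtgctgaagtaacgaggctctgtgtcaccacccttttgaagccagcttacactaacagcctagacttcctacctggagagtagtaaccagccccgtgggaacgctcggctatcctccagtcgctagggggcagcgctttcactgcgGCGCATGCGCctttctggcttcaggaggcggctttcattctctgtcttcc
Atp5g2: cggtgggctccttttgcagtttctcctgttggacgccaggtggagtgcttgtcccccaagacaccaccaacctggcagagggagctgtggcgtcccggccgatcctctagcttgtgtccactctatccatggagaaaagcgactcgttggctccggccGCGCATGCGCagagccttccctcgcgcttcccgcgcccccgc
Ndufa11: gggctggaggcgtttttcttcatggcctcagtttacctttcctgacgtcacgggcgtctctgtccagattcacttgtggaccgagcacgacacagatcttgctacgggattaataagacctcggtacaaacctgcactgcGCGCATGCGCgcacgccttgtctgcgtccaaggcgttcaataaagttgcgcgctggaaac
Atp5b: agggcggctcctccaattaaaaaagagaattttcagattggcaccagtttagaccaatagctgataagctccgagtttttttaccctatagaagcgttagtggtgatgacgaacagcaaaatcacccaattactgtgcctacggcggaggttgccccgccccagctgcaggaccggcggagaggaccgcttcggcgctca
Cox7a1: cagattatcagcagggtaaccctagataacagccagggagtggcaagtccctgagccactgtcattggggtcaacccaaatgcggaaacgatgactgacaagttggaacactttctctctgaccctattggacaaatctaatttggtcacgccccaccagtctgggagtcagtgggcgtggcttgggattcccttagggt
Atp5k, Atp5g2 and Ndufa11 each held the NRF1 letters on both strands of a single site, and the stretches of Atp5b and Cox7a1 held none of the searched motifs. A match of letters is a description of the window and not a binding site.

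The members were among the abundant liver transcripts. Their sum ranged from 12796 TPM in control female library 4 at late resolution to 26137 TPM in ethanol male library 2 at early resolution, and 75 of the 86 averaged at least 20 TPM over the 45 libraries. ATP synthase held the highest levels. Atp5b, the catalytic beta subunit, averaged 973 TPM, Atp5a1, the alpha subunit, 849 TPM, and Atp5g3, which encodes the c subunit of the rotor ring, 694 TPM. In complex IV, Cox4i1, its ubiquitous subunit 4 isoform, averaged 684 TPM. In complex I the highest was Ndufa4 at 461 TPM, a protein now assigned to complex IV. Uqcrq led complex III at 325 TPM.

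The median of the members' mean levels was 120 TPM in complex I, 326 TPM in complex II, 251 TPM in complex III, 258 TPM in complex IV and 283 TPM in ATP synthase, over the members tested. Complex II was the most even: Sdhc averaged 374 TPM and Sdhd 311 TPM (the membrane anchors), Sdha 342 TPM (the flavoprotein) and Sdhb 248 TPM (the iron-sulfur subunit). In complex I, Ndufs5, an accessory subunit, averaged 2.95 TPM and was listed at 0 in 2 libraries. Ndufs5 has a transcript at least 95% identical over 200 bases or more at 1 other locus, as have 21 of the 86 members, and how the authors assigned such reads is not given in the sources used here. Exons of 27 members overlap another gene on the opposite strand and those of 5 members on the same strand.

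For the complex IV subunits with tissue-specific paralogs, the liver libraries held mainly one form. Cox6a1 averaged 327 TPM, Cox7a2 187 TPM and Cox8a 268 TPM. Their heart and skeletal muscle counterparts Cox6a2, Cox7a1 and Cox8b had medians of 0.0672, 4.08 and 0 TPM. Cox4i2, an isoform of lung and hypoxic cells, averaged 0.203 TPM against 684 TPM for Cox4i1, and Cox6b2, a testis form, 0.429 TPM against 381 TPM for Cox6b1. Cox7b2 and Cox8c were listed at 0 in all 45 libraries. The c subunit of ATP synthase is encoded by 3 genes with the same mature protein, and all were well expressed, with Atp5g3 at 694 TPM, Atp5g1 at 274 TPM and Atp5g2 at 189 TPM. The name rule also took Atp5s (0.99 TPM), a coupling factor that is no structural subunit, Cox7a2l (211 TPM), a factor of supercomplex assembly, and Ndufb4c (27.1 TPM), which GENCODE M21 calls a processed pseudogene.

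**Figure D1:**
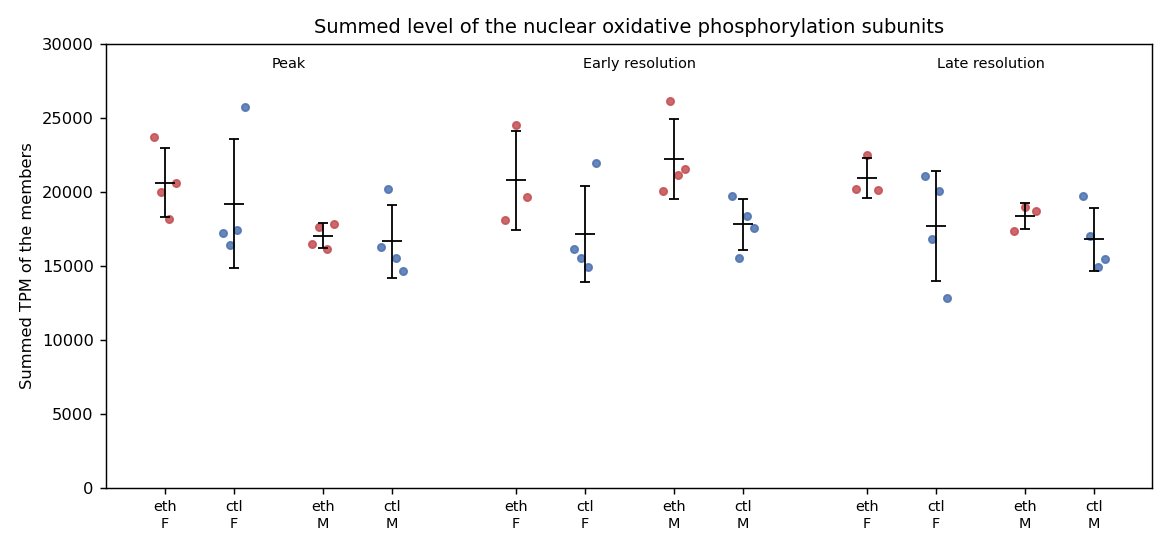
Summed TPM of the 86 members in each of the 45 libraries (points), by stage, diet label (eth in red, ctl in blue) and sex label (F, M), with the group mean and SD as bars. At early resolution the ethanol libraries lie between 18125 and 26137 TPM and the control libraries between 14911 and 21966 TPM, so the groups overlap.

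The muscle forms marked 1 library. Cox6a2 was 243 TPM in ethanol female library 1 at peak and at most 0.27 TPM in the other 44. Cox8b was 124 TPM there and at most 1.47 TPM elsewhere, and Cox7a1 was 103 TPM there and at most 8.85 TPM elsewhere. In the same library Acta1, Mb and Ckm, the actin, oxygen carrier and creatine kinase of skeletal muscle, were 2432, 1799 and 641 TPM, against at most 1.85, 1.34 and 0.49 TPM elsewhere. Liver forms in that library, with Cox6a1 at 461, Cox7a2 at 178 and Cox8a at 328 TPM, lay within the range of the other libraries. Cox6a2 and Cox8b reached the filter of 0.5 TPM only through this library: without it they averaged 0.0686 and 0.153 TPM.

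**Figure D2:**
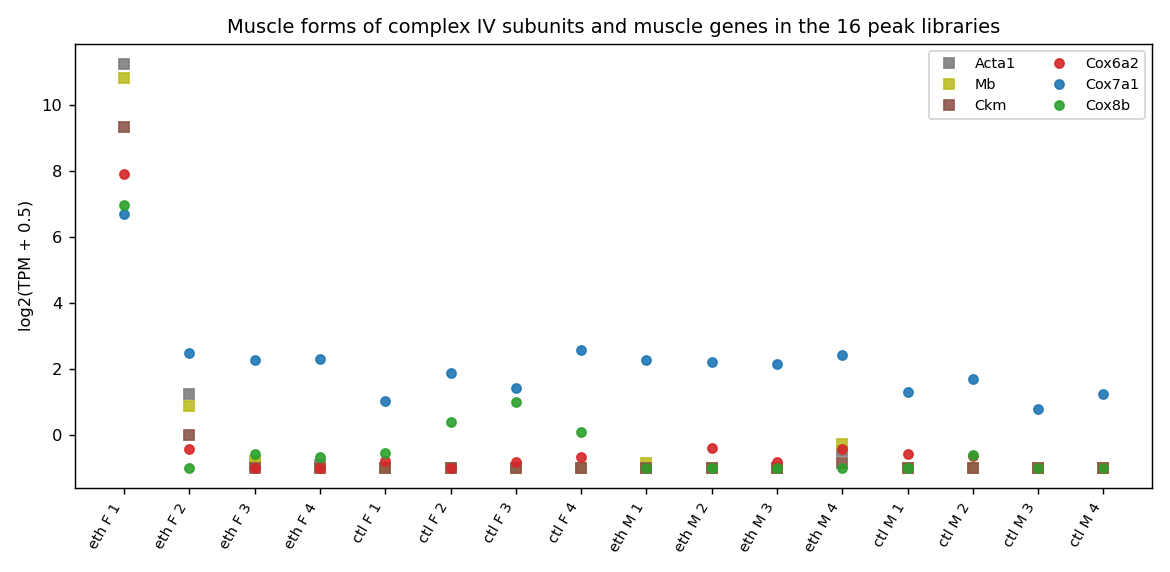
Levels, as log2(TPM + 0.5), of 3 muscle forms of complex IV subunits (circles) and 3 skeletal muscle genes (squares) in each of the 16 peak libraries, by diet label (eth, ctl), sex label (F, M) and replicate number. All 6 genes are highest in ethanol female library 1; Cox7a1 stays detectable in every library.

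At peak, a pair of the 82 members passed the test by diet label, both higher in ethanol libraries (2.44%), where 27.1% of all 11244 genes tested were called in either direction and 17.3% were higher. The tests were limma on log2(TPM + 0.5), with Benjamini-Hochberg adjustment over all genes and a call at an adjusted p under 0.05. The median log2 difference of the members was 0.06, beside 0.05 for all genes. No member fell. Per complex the called members were Cox7a1 in complex IV and Atp5b in ATP synthase, with none of 39 in complex I, 4 in complex II or 8 in complex III. In TPM, all 82 members overlapped between the diet labels at peak, early and late resolution, where 3.31%, 2.73% and 0.738% of all genes did not overlap.

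Atp5b, at chr10:128083273-128090391 (mm10), was 1559, 1327, 1086 and 1322 TPM in the 4 ethanol female libraries, against 959, 924, 918 and 996 TPM in the control female libraries. In males it was 899, 1029, 885 and 852 TPM in ethanol libraries, against 664, 787, 870 and 800 TPM in control libraries. Ethanol females were all above control females, ethanol males were above control males save that 852 lay below 870, and ethanol males overlapped control females. The log2 difference was 0.35 ± 0.10 (SE; limma, adjusted p = 0.0093), with 8 of 8 ethanol libraries above the control mean of their sex label. With median-of-ratios scaling, which sets each library's typical gene equal, it was 0.27 (limma, adjusted p = 0.0018); on that scale the same pair of members was called, where 35.7% of all genes were. Its partner in the catalytic head, Atp5a1, had a log2 difference of 0.19 and did not pass (limma, adjusted p = 0.12), although 8 of 8 ethanol libraries lay above the control means.

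Cox7a1, the heart and muscle form of subunit 7a, at chr7:30184144-30186078, was 103, 5.06, 4.30 and 4.41 TPM in ethanol female libraries, against 1.55, 3.17, 2.15 and 5.51 TPM in control female libraries at peak. It was 4.31, 4.08, 3.94 and 4.89 TPM in ethanol male libraries, against 1.96, 2.73, 1.23 and 1.85 TPM in control male libraries. The males did not overlap, and in females the control library of 5.51 TPM exceeded 3 of the ethanol libraries. The log2 difference was 1.36 ± 0.38 (SE; limma, adjusted p = 0.0076). Without the library that held muscle transcripts it was 0.81 and still called, with adjusted p between 0.003 and 0.021 (limma) over the 16 fits that each left out 1 library. A fit of the peak libraries alone ended the call (limma, adjusted p = 0.058).

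At both later stages Cox7a1 did not pass the test by diet label. At early resolution it was 5.76, 7.61 and 6.16 TPM in ethanol females and 5.89, 8.17, 4.61 and 8.0 TPM in ethanol males, against 2.72, 3.34, 2.80 and 5.69 TPM in control females and 4.24, 1.89, 3.00 and 3.03 TPM in control males. All 7 ethanol libraries were above the control mean of their sex label, and only the control library of 5.69 TPM overlapped them. The log2 difference was 0.92 ± 0.40 (SE; limma, adjusted p = 0.11), and at late resolution 0.85 ± 0.41 (limma, adjusted p = 0.17) with 6 of 6 above. Markers of other cell types moved with the diet label at peak: 10 of 10 endothelial genes and 8 of 10 stellate cell genes were called higher, where 17.3% of all genes were. With median-of-ratios scaling 9 of 10 genes of each list were called higher, where 35.7% of all genes were called in either direction. As deposited, the summed endothelial level was 91.2 to 286 TPM in ethanol libraries, against 59.3 to 213 TPM in control libraries. The stellate sums were 127 to 350 TPM in ethanol libraries, against 55.6 to 194 TPM in control libraries, and none of the 10 genes of either list was at 0 in all libraries. Their part in the Cox7a1 difference was not tested, and more cells of a type and more RNA per cell cannot be told apart in bulk tissue.

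**Figure D3:**
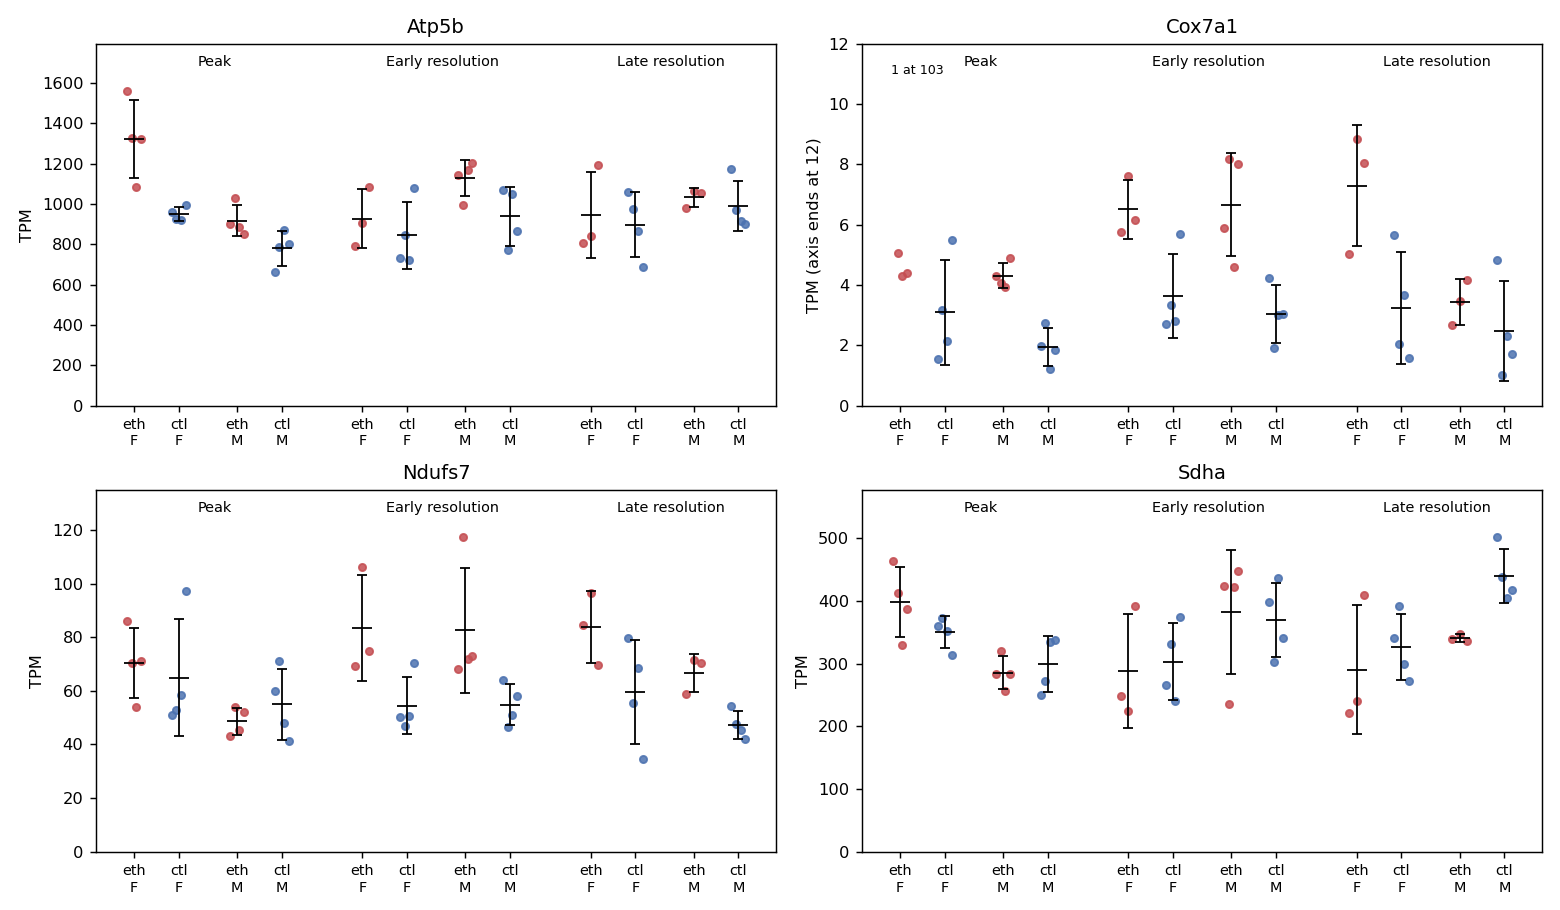
TPM of Atp5b, Cox7a1, Ndufs7 and Sdha in each library (points) by stage, diet label (eth in red, ctl in blue) and sex label, with group mean and SD. The Cox7a1 axis ends at 12, so 1 ethanol female library at 103 TPM is not drawn and that group has no mean. Atp5b is highest in ethanol females at peak, and Ndufs7 is higher in ethanol libraries at both resolution stages.

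At early resolution, 23 of 82 members rose in ethanol libraries and none fell (28.0%), where 14.3% of all genes rose and 16.7% were called in either direction. Of those 23, 12 were in complex I, 1 in complex II, 2 in complex III, 1 in complex IV and 7 in ATP synthase. The member median was 0.31 and 80 of 82 members had positive differences, beside a median of 0.13 and 71.5% positive over all genes. Median-of-ratios scaling moved the median of all genes by more than 0.1, to -0.03, and on that scale the members' median was 0.13, 73 of 82 were positive and none was called, where 16.8% of all genes were. At an unadjusted p under 0.05 that fit held 5 members, and the share of all genes at that level is not reported here.

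Some markers of immune and stellate cells were called by diet label at both later stages. At early resolution 8 of 10 macrophage genes, 5 of 7 tested T and NK cell genes, 3 of 4 tested B cell genes, 5 of 10 stellate cell genes and 3 of 10 endothelial genes were called higher, and 1 T and NK cell gene lower, where 14.3% of all genes were higher. The macrophage sum was then 390 to 634 TPM in ethanol libraries, against 143 to 465.8 TPM in control libraries, the T and NK cell sum 6.84 to 18.0 TPM in ethanol libraries, against 4.14 to 9.28 TPM in control libraries, and the B cell sum 154 to 306 TPM in ethanol libraries, against 62.9 to 144 TPM in control libraries. The stellate cell sum was 195 to 263 TPM in ethanol libraries, against 95.01 to 187 TPM in control libraries, so that it and the B cell sum did not overlap between the diet labels. With median-of-ratios scaling 5 macrophage, 4 T and NK cell, 1 B cell, 2 stellate cell and 0 endothelial genes were called higher at early resolution. On that scale 1 T and NK cell gene was lower, and 16.8% of all genes were called in either direction. At late resolution 5 of 10 macrophage, 4 of 7 T and NK cell, 4 of 4 B cell and 1 of 10 stellate cell genes were called higher, where 8.82% of all genes were. The macrophage sum was then 420 to 680 TPM in ethanol libraries, against 182 to 728 TPM in control libraries. The 728 TPM was in control female library 1, whose sex transcripts stood apart. The other control libraries reached at most 339 TPM, below every ethanol library. With median-of-ratios scaling 6, 4, 4 and 1 genes of those lists were called higher, where 21.0% of all genes were called in either direction. None of the genes of these lists found in the table was at 0 in all libraries, and their part in the members' differences was not tested.

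Ndufs7 (chr10:80249121-80256794), a core complex I subunit that carries an iron-sulfur cluster, was 69.3, 106 and 74.9 TPM in ethanol females and 68.0, 117, 71.7 and 73.1 TPM in ethanol males. In control females it was 50.1, 46.7, 50.7 and 70.2 TPM, and in control males 64.1, 46.6, 50.8 and 57.9 TPM. Only the control library of 70.2 TPM reached the ethanol values. The log2 difference was 0.58 ± 0.16 (SE; limma, adjusted p = 0.0091), and 0.40 with median-of-ratios scaling (limma, adjusted p = 0.08).

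Ndufa7 (chr17:33824572-33838317), a complex I accessory subunit, was 139, 232 and 168 TPM in ethanol females and 175, 266, 189 and 176 TPM in ethanol males, against 109, 101, 127 and 161 TPM in control females and 146, 124, 140 and 126 TPM in control males. Every ethanol male library lay above every control library, and ethanol females overlapped the controls through 139 TPM. Its log2 difference was 0.54 ± 0.14 (SE; limma, adjusted p = 0.0064), and 0.36 with median-of-ratios scaling (limma, adjusted p = 0.09).

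The other 10 called members of complex I were the accessory subunits Ndufa5, Ndufa9, Ndufa11, Ndufab1, Ndufb4, Ndufb5, Ndufb7, Ndufb8, Ndufb9 and Ndufb11, with log2 differences from 0.30 (Ndufb9) to 0.49 (Ndufa5). The nuclear core subunits Ndufs1, Ndufs3, Ndufs8, Ndufv1 and Ndufv2 did not pass: their log2 differences lay between 0.09 (Ndufs1, limma adjusted p = 0.66) and 0.31 (Ndufs8, limma adjusted p = 0.068), and the smallest adjusted p among these 5 was that of Ndufs3 (0.30, limma adjusted p = 0.054).

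All 3 genes of the c subunit rose together at early resolution, by 0.49 ± 0.13 for Atp5g1, 0.36 ± 0.10 for Atp5g2 and 0.33 ± 0.12 for Atp5g3 (log2, SE), with limma adjusted p of 0.0054, 0.011 and 0.046. Atp5g1 was 286, 417 and 294 TPM in ethanol females and 283, 441, 353 and 319 TPM in ethanol males, against 225, 207, 232 and 299 TPM in control females and 245, 222, 247 and 238 TPM in control males. Only the control library of 299 TPM overlapped the ethanol ones. The other called members of ATP synthase were Atp5h, Atp5j, Atp5k and Atp5o, parts of its stalk and membrane domain, with log2 differences of 0.34 to 0.40. Atp5b and Atp5a1, the catalytic head, had 0.21 and 0.14 and did not pass.

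In complex III the called members were Uqcrb (0.46 ± 0.14, limma adjusted p = 0.022) and Uqcrfs1, the Rieske iron-sulfur protein (0.42 ± 0.13, adjusted p = 0.021). Complex IV had Cox6c alone (0.42 ± 0.14, adjusted p = 0.042). In complex II Sdhc rose by 0.33 ± 0.10 (adjusted p = 0.014), while Sdha had -0.04 ± 0.14 (adjusted p = 0.90). None of these calls held with median-of-ratios scaling, where Uqcrb had 0.28, Uqcrfs1 0.24, Cox6c 0.24 and Sdhc 0.15.

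The count at early resolution rested on single libraries. It was 4 without ethanol female library 2 and 8 without ethanol male library 2, those with the highest member sums of their groups, and 47 without control female library 4, the highest of its group. Leaving out control female library 1, 2 or 3 gave 12, 10 or 7 members, ethanol female library 1 gave 43, and control male library 2, 3 or 4 gave 8, 15 or 13. Without the 3 libraries that stood apart it was 26 of 80 members tested, all higher, where 1748 of 11134 genes were higher. For the fits that each left out 1 library, the share of all genes called is not reported here.

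**Figure D4:**
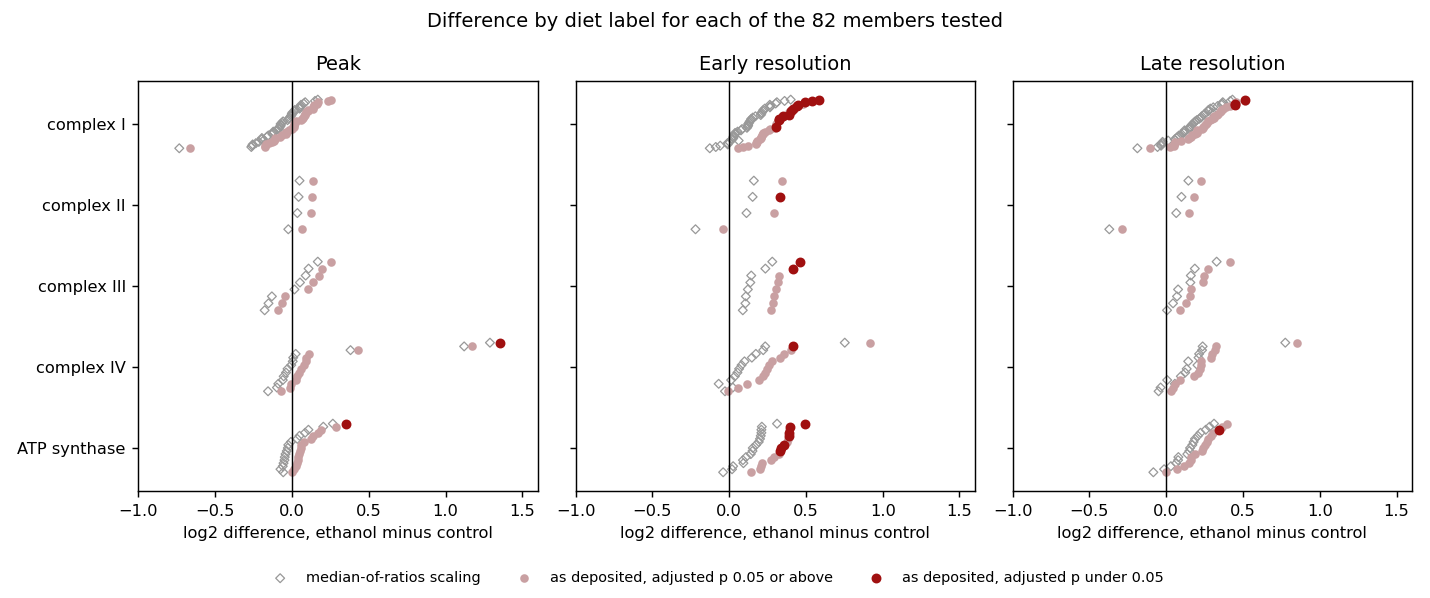
Log2 difference, ethanol minus control, of each of the 82 members tested (rows grouped by complex, sorted within it) at the 3 stages; filled circles are values as deposited, dark where the adjusted p is under 0.05, and open diamonds are values with median-of-ratios scaling. At early resolution 80 of 82 circles lie right of 0, and the diamonds lie further left throughout.

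At late resolution 4 of 82 members rose in ethanol libraries (4.88%), where 8.82% of all genes rose and 12.8% were called in either direction. They were Ndufs7, Ndufb10, Ndufa7 and Atp5g2. The member median was 0.24, with 79 of 82 positive, beside 0.05 and 57.1% over all genes; with median-of-ratios scaling the medians were 0.15 and -0.02. Ndufs7 was 84.6, 96.6 and 69.8 TPM in ethanol females, against 79.9, 55.4, 68.7 and 34.8 TPM in control females, and 58.6, 71.5 and 70.2 TPM in ethanol males, against 54.2, 47.7, 45.4 and 42.0 TPM in control males. The males did not overlap. The females did, only through the 79.9 TPM of control female library 1, whose sex transcripts stood apart. Its log2 difference was 0.52 ± 0.16 (SE; limma, adjusted p = 0.032).

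Atp5g2 (chr15:102662864-102672352) at late resolution was 238, 246 and 221 TPM in ethanol females, against 215, 174, 199 and 129 TPM in control females. It was 191, 204 and 190 TPM in ethanol males, against 181, 163, 155 and 150 TPM in control males. Within each sex label the ethanol libraries were all above the control ones. The log2 difference was 0.34 ± 0.10 (SE; limma, adjusted p = 0.023), and 0.26 with median-of-ratios scaling (limma, adjusted p = 0.072). Ndufa7 and Ndufb10, both accessory subunits of complex I, differed by 0.45 ± 0.15 and 0.45 ± 0.15 (limma, adjusted p = 0.038 and 0.047).

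Sdha (chr13:74322254-74350280) was the one member called with median-of-ratios scaling at late resolution, where 21.0% of all genes were called, and it was lower in ethanol libraries. It was 222, 240 and 409 TPM in ethanol females, against 341, 392, 300 and 272 TPM in control females. In males it was 339, 347 and 336 TPM in ethanol libraries, against 501, 438, 404 and 418 TPM in control libraries. The male groups did not overlap and the female groups did. The scaled log2 difference was -0.37 ± 0.10 (SE; limma, adjusted p = 0.0084), and as deposited -0.29 ± 0.14 (limma, adjusted p = 0.18). Sdhb, Sdhc and Sdhd, the other subunits of its complex, had differences of 0.18, 0.23 and 0.15 as deposited, none of them called.

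The count at late resolution was 0 without control female library 4, ethanol female library 2 or ethanol male library 2. It was 17 without control female library 1, whose sex transcripts stood apart, 10 without control female library 3, 2 without control female library 2, 11 without ethanol female library 3, and 8 without control male library 1. Leaving out ethanol female library 1, ethanol male library 3, or control male library 3 or 4 gave 1 each. Without the 3 libraries that stood apart it was 12 of 80 members tested, and all were higher, where 1188 of 11134 genes were higher. The share of all genes called in each fit that left out 1 library is not reported here.

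No member passed the test of a difference between the sex labels in the diet difference at any stage, nor the test of a change in the diet difference between peak and either later stage. Of all genes, 0.16% were called for the first at peak, 0.00889% at early and 0.0445% at late resolution, and 0.0% and 3.98% for the change to early and to late resolution. At an unadjusted p under 0.05 the members numbered 0 at peak, 0 at early and 1 at late resolution for the first, and 4 and 3 for the changes. For these unadjusted counts the share of all genes is not reported here. The largest change among members of at least 20 TPM was in Ndufs7, whose diet difference was 0.00 ± 0.15 at peak, 0.58 ± 0.16 at early and 0.52 ± 0.16 at late resolution. The 23 calls at early resolution against 2 at peak are therefore not shown to differ between stages. These comparisons share the peak libraries.

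By sex label at peak, 25 of 82 members were lower in male-labelled libraries and none was higher (30.5%), where 46.7% of all genes were lower and 51.0% were called in either direction. The member median was -0.23, beside -0.29 for all genes. On the median-of-ratios scale the median of all genes was 0.01 and that of the members 0.11, and 4 members were called higher and 1, Cox8b, lower, where 31.7% of all genes were called. Cox8b reached the filter only through ethanol female library 1, so its call, on this scale and among the 25, rests on that library. The members called higher on that scale were Ndufa8 (0.57 ± 0.14, limma adjusted p = 0.0022), Ndufs4 (0.35 ± 0.12, 0.021) and Atp5g2 (0.28 ± 0.10, 0.026), and Sdhd (0.23 ± 0.07, 0.012). The direction of the members as a set thus turned with the scaling. As deposited, those 4 genes differed by 0.22, 0.00, -0.07 and -0.12.

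Of the calls as deposited, Cox8b had the largest difference (-1.65 ± 0.58, limma adjusted p = 0.019), and it rests on ethanol female library 1: without that library Cox8b did not pass the filter. Next was Ndufb4c, at 13.9, 15.3, 17.2 and 24.2 TPM in ethanol males and 22.6, 26.7, 15.4 and 14.9 TPM in control males, against 68.8, 28.1, 25.1 and 21.1 TPM in ethanol females and 57.5, 23.2, 28.8 and 36.1 TPM in control females. Males were mostly lower and the groups overlapped. The log2 difference was -0.84 ± 0.26 (SE; limma, adjusted p = 0.0081), and -0.50 with median-of-ratios scaling (adjusted p = 0.17). Ndufa13, Ndufs6, Atp5b and Cox6a1 differed by -0.49, -0.42, -0.41 and -0.40, and with median-of-ratios scaling by -0.14, -0.07, -0.05 and -0.05, none of them called on that scale. Without the 3 libraries that stood apart, Ndufa13 (-0.42, limma adjusted p = 0.057) and Cox6a1 (-0.34, limma adjusted p = 0.10) did not pass.

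The count by sex label at peak was 14 of 80 members tested without the 3 libraries that stood apart, where 4599 of 11134 genes were lower. It was 14 without ethanol female library 1 alone and 15 without control female library 4, fits whose share of all genes is not reported here. No member differed by sex label at early or late resolution, where 0.596% and 3.25% of all genes were called as deposited. At an unadjusted p under 0.05 there were 5 members at early and 13 at late resolution. The share of all genes at that unadjusted level is not reported here, so these counts are a description only. Median-of-ratios scaling called 0 members at early and 1 at late resolution. That 1 was Sdha (0.31 ± 0.10, limma adjusted p = 0.046), higher in male-labelled libraries at late resolution, where 9.65% of all genes were called on that scale.

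The members moved together from library to library. Over the 75 members of at least 20 TPM, the median pairwise correlation of their deviations from the group means was 0.77 across the 45 libraries, a description in which all genes share library composition. Ndufab1, the mitochondrial acyl carrier protein, correlated at 0.97 with the mean of the other members, Ndufb9 at 0.97 and Ndufb5 at 0.96. Those least tied to the rest were Sdha (0.00), Ndufs1, the largest core subunit of complex I (0.17), Ndufb4c (0.34), Atp5a1 (0.46), Atp5b (0.49) and Uqcrc2, a core protein of complex III (0.50). The median SD within groups, on the log2 scale, was 0.248 for these members, beside 0.255 for 2820 other genes of at least 20 TPM.

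Most members have short annotated transcripts, with a median spliced length of 655 bases among the 82, and library deviations followed length. The length of a gene was the median over its annotated protein-coding transcripts, or over all of them where none is coding. It need not be that of the transcript expressed in liver: Atp5g1 had 2675.5 bases and Ndufs1 651. Other genes of at least 20 TPM were divided by length into 3 classes of 935, with medians of 765.5, 1460.5 and 2757 bases. In ethanol male library 2 at early resolution the members' median deviation from the mean of 45 libraries was 0.59, beside 0.27 for the shortest class and -0.25 for the longest. In control female library 4 at late resolution it was -0.53, beside -0.45 and -0.33. By diet label at early resolution the median difference was 0.31 for members, and 0.20, 0.16 and 0.08 for the short, middle and long class, and at late resolution 0.24, 0.18, 0.11 and -0.03. The share called higher was 28.0% of members and 23.9%, 21.5% and 10.9% of the short, middle and long class at early resolution, and 4.88% of members and 19%, 14% and 6.31% of the classes at late resolution. The members' median was thus above that of the short class at both stages, while at late resolution a smaller share of members than of short genes was called; neither difference was tested.

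**Figure D5:**
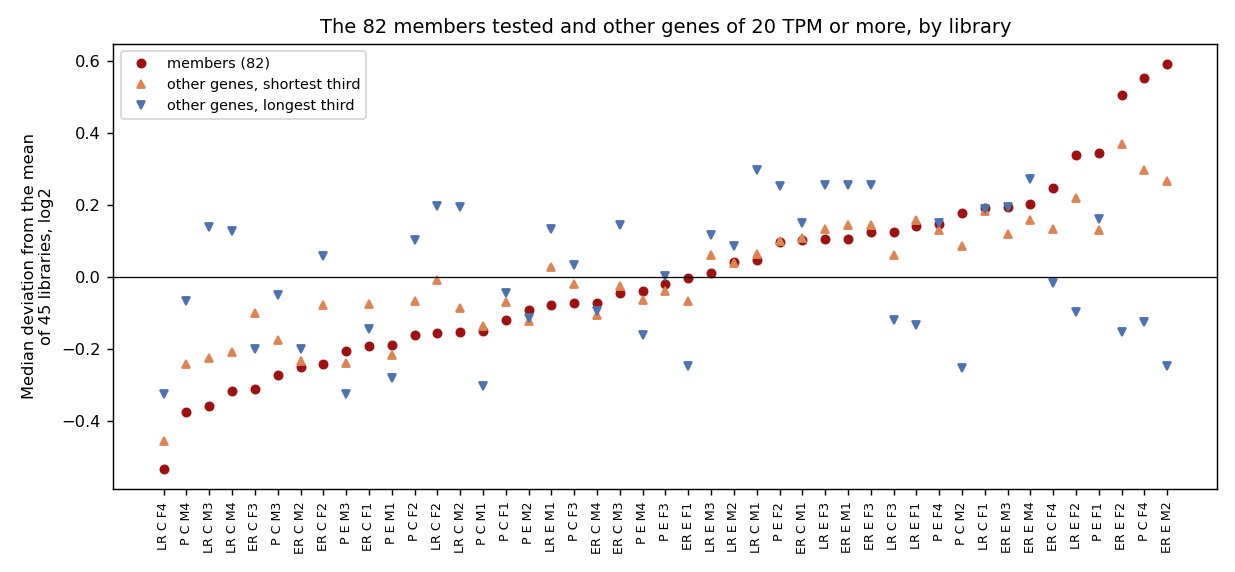
Median deviation from the mean of the 45 libraries (log2) of the 82 members, and of the shortest and longest of 3 length classes of other genes of at least 20 TPM, in each library; libraries are ordered by the members' value and named by stage (P, ER, LR), diet label (E, C), sex label and replicate. Members run from -0.53 to 0.59; the short genes follow them, and in the 3 highest libraries the long genes lie below 0.

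The ribosomal protein genes, also short and abundant, had positive medians by diet label too, of 0.30 at early and 0.37 at late resolution as deposited. Of 88 tested, 46 rose at early and 60 at late resolution, where 14.3% and 8.82% of all genes rose. Of the 82 members, 23 and 4 rose, so the counts went apart at late resolution. With median-of-ratios scaling 1 and 11 ribosomal protein genes were higher, and no member was. The difference between these sets was not tested. When a trend with transcript length was removed from each library, a correction chosen after the values were seen, 4 members were called higher at early resolution (Atp5g2, Ndufa7, Ndufa9 and Ndufs7). At late resolution Atp5g2 and Ndufs7 were called higher and Sdha lower, where 19.7% of all genes were called, and at peak 6 members were called higher, among them Atp5b, Atp5f1, Cox7a1, Ndufb8 and Uqcrc2, where 37.2% were. The early background with that correction was 16.9%. Atp5b then had 0.30 (limma, adjusted p = 0.00031) at peak and Ndufs7 0.41 (adjusted p = 0.015) at early resolution.

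Assembly factors, which build the complexes without being part of them, were called only as lower at peak. For complex I, 4 of 15 fell in ethanol libraries and none rose, with a median of -0.16, where 9.81% of all genes fell. Ndufaf4 fell by 0.53 ± 0.11 (log2, SE; limma, adjusted p = 0.00047) and Ndufaf1 by 0.49 ± 0.11 (adjusted p = 0.00082), and Tmem126b, a partner of Ndufaf1 in assembling the membrane arm, by 0.45 ± 0.14 (adjusted p = 0.012). Of 32 factors for the other complexes tested, 4 fell and none rose, with a median of -0.14, among them Cox19 (-0.78 ± 0.12, adjusted p = 7.5e-06), Sdhaf1 (-0.74 ± 0.17, adjusted p = 0.0013) and Coa6 (-0.67 ± 0.17, adjusted p = 0.0026), which serve copper delivery to complex IV or iron-sulfur insertion into complex II. With median-of-ratios scaling 7 of 15 and 9 of 32 fell and none rose, where 20.7% of all genes fell. At early resolution 1 of 15 and 2 of 32 rose and none fell as deposited, where 14.3% of all genes rose; with median-of-ratios scaling none rose and 3 of 15 and 3 of 32 fell, where 9.17% of all genes fell. At late resolution 0 of 15 were called and 3 of 32 rose and 1 fell as deposited, where 8.82% of all genes rose and 3.98% fell; with the scaling 1 of 15 fell, and of the 32, 1 rose and 3 fell, where 12.5% of all genes fell. The direction of these counts thus turned with the scaling at early resolution. The difference between subunits and assembly factors was not tested.

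Other genes of the pathway gave mixed counts at peak, where 17.3% of all genes rose and 9.81% fell as deposited, and 20.7% fell with median-of-ratios scaling. Of 15 genes of coenzyme Q synthesis and cytochrome c, 4 rose and 1 fell, and 2 rose and 2 fell with that scaling: as deposited the kinase-like Coq8b had a log2 difference of 1.20 ± 0.17 (limma, adjusted p = 1.7e-06) and the methyltransferase Coq3 one of -0.27 ± 0.09 (adjusted p = 0.02). Among 6 tested carriers and uncoupling genes, 3 rose, including Ucp2, an inner-membrane carrier (0.81 ± 0.19, adjusted p = 0.0019), and Slc25a3, the phosphate carrier that feeds ATP synthase (0.40 ± 0.11, adjusted p = 0.0059). Aox1, an aldehyde oxidase of the cytosol on the same list, fell by 0.87 ± 0.18 (adjusted p = 0.00051). Of 17 regulators of mitochondrial biogenesis 2 rose, Gabpb1 (0.52 ± 0.11, adjusted p = 0.00046) and Pprc1 (0.69 ± 0.16, adjusted p = 0.0017), and 2 fell, one of them Tfb1m (-0.48 ± 0.10, adjusted p = 3e-04); with median-of-ratios scaling 2 rose and 7 fell. Of the 5 tested genes next to the members but outside the name rule, such as Cyc1 and Nnt, 1 rose and 1 fell, and with the scaling 1 rose and 2 fell.

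At the later stages the carrier list had calls in both scalings: 2 of 6 rose at early resolution (1 with median-of-ratios scaling), and 2 rose and 1 fell at late resolution in either scaling. Ucp2 had 1.18 ± 0.20 at early resolution (limma, adjusted p = 5.5e-05) and 0.89 ± 0.21 at late resolution (adjusted p = 0.0035), and with median-of-ratios scaling 1.00 and 0.81, called at both. Atpif1, the inhibitor of ATP hydrolysis by ATP synthase, had 0.59 ± 0.19 at early (adjusted p = 0.029) and 0.79 ± 0.20 at late resolution (adjusted p = 0.0065), and with median-of-ratios scaling it was called at late resolution only (0.71, adjusted p = 0.0047). Aox1 was the one that fell at late resolution (-0.62 ± 0.20, adjusted p = 0.033, and -0.70 with the scaling, adjusted p = 0.00045). Of regulators of biogenesis none was called as deposited at either stage, and 1 fell at each with the scaling. As deposited, Tfam, which maintains mitochondrial DNA, had 0.28 ± 0.12 at early resolution (adjusted p = 0.099) and Ppargc1a 0.33 ± 0.23 (adjusted p = 0.36).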

How the data were processed

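Liver lysate was measured by RNA-seq with a stranded mRNA kit, per the labels' protocols, against genome build mm10, per the submitters' processing notes. No aligner, counter or annotation is named in those sources. One table, deposited by the authors, gives TPM for 24972 entries and 45 libraries, in which each library sums to between 999999 and 1000001. The depth is therefore unknown, and no interval for counting error can be given. Left out were 26 entries whose names had become dates (0.044% of the TPM). Another 5940 genes are at 0 in all libraries.

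The 11244 genes that averaged 0.5 TPM or more (11194 after scaling) were fitted with limma 3.58.1 in R 4.3.3 on log2(TPM + 0.5), with 12 group means, 33 residual and 3.8 prior degrees of freedom, a variance trend and Benjamini-Hochberg adjustment over all genes tested. A fold change on this scale understates the change of low genes. Median-of-ratios factors (0.743 to 1.29, over 13216 genes above 0 in all libraries) were an alternative. Others were pseudocounts of 0.1 and 2, no filter, the stage alone, the replicate number as a block, leaving out each library, leaving out the 3 libraries that stood apart and a length correction over 20 bins of length; the last pair was chosen after seeing the data. Lengths and coordinates are from GENCODE M21 (all 86 members matched), and promoters from RefSeq. Python 3 with pandas and matplotlib drew the figures.

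Values were given for the 6 called members with the largest difference each way per comparison, the most abundant member of each complex, complex II and paralogous sets; Atp5a1, Uqcrfs1, Cox6c, Ndufs4, Ndufa8 and members of the correlation and length paragraphs were named after their values were seen. Some values that this rule or the lists call for are not reported here. The members and the gene lists were chosen with earlier results of these data known. On simulated data over 11244 genes, the peak diet comparison recovered 15 of 100 genes changed by 0.3 (log2) and 93 of 100 changed by 1, with 6 false calls. Far fewer genes were changed there than the 3049 called at peak in the data. The adjusted p depends on that share, so the recovery in the real test can differ.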

Additional observations from a re-analysis of the deposited data

Results flagged for a closer look

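Among 75 groups of 4 libraries, for 9 members and the summed members with a group mean of at least 0.5 TPM, 15 had 1 library far from the other 3. In independent groups chance gives about 1 in 20 (3.8 of 75). These groups are not independent, since the members moved together and their sum is among them. For Cox6a2 and Cox8b the ethanol female group at peak reached 0.5 TPM only through the flagged library, so those flags were fixed in advance. The count is therefore a description and cannot be set against chance. Ethanol female library 1 at peak stood apart for Cox7a1 (103 TPM, the others 4.3 to 5.06), Cox6a2 (243 TPM, at most 0.243), Cox8b (124 TPM, at most 0.163) and Ndufb4c (68.8 TPM, 21.1 to 28.1). Control female library 4 at peak was high for Ndufs7 (97.3 TPM, the others 50.9 to 58.3), Ndufa7 (212 TPM, 111 to 117) and the summed members (25700 TPM, 16400 to 17400). Ethanol male library 2 at early resolution was high for Ndufs7 (117 TPM, 68 to 73.1) and Ndufa7 (266 TPM, 175 to 189) and low for Sdha (236 TPM, 422 to 448). Control female library 4 at early resolution was high for Ndufs7 (70.2 TPM, 46.7 to 50.7) and Atp5g2 (213 TPM, 161 to 168), and control male library 2 at peak for Atp5g2 (212 TPM, 160 to 169). Ndufb4c was also high in control female library 1 at early resolution (62.3 TPM, 16 to 22) and in control female library 3 at late resolution (63.4 TPM, 16.2 to 22.8). What set these libraries apart was not tested.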

How the results depend on the processing

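Of the member counts, that by diet label at peak was 2 with median-of-ratios scaling, both pseudocounts and no filter, 3 from the stage alone and 6 with the length correction; leaving out 1 library gave 2 to 5, with 5 without control female library 4. The count of 23 at early resolution was 0 with median-of-ratios scaling, 14 without the filter, 11 from the stage alone and 4 with the length correction, and leaving out 1 library gave 4 to 47. The count of 4 at late resolution was 1, in the other direction, with median-of-ratios scaling, 2 without the filter, 0 from the stage alone and 12 without the 3 libraries that stood apart, and leaving out 1 library gave 0 to 17. By sex label at peak, 25 became 5 with median-of-ratios scaling, 4 with the length correction and 14 without the 3 libraries, and leaving out 1 library gave 14 to 31. By sex label at late resolution, 0 became 1 with median-of-ratios scaling and 1 with the length correction, and leaving out 1 library gave 0 to 2, with 2 without control female library 4 and 2 without ethanol female library 3. The change of the diet difference to late resolution was 2 with the length correction and 0 otherwise. The other counts stayed at 0 in every alternative run. Of the 18 calls named by comparison, 3 held with median-of-ratios scaling, 6 with the length correction, 11 from the stage alone, 14 without the filter, 18 and 17 with pseudocounts of 0.1 and 2, and none changed sign. The 12 by diet label could also be fitted with the replicate block, where 8 held and 4 did not, and 17 were tested without the 3 libraries, where 15 held and 2 did not. Cox8b, among those 18, rests on ethanol female library 1 at peak. Where it is not given above, the share of all genes called in an alternative fit is not reported here. The cause of these changes was not tested. TPM hides depth, so what depth limits is unknown.

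With the replicate number as a block (42 libraries, 15 residual degrees of freedom), 2 members were called by diet label at peak, 41 at early and 0 at late resolution. The share of all genes called in that fit is not reported here. The deviations of same-numbered libraries had correlations of -0.371 to 0.25 (median -0.053) over 21 pairs, 7 above 0.1, and 6 of the 21 correlated best with their own number. The 4 pairs of peak females were at 0.109 to 0.222 and each was best with its own number, and 2 of the early males were too, while no pair of the other groups was. Since no label gives the numbers a meaning and 14 of the 21 pairs were not above 0.1, the numbers were not taken to pair the libraries.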
